A study of Mus musculus with 11 samples.

Results

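Neuroblastomas taken after both drugs, the curaxin CBL0137 and the histone deacetylase inhibitor panobinostat, were compared with neuroblastomas taken after vehicle. The members are the 3 combination and 3 vehicle libraries, 6 of the 11 libraries of the study, and every gene that reached 1 TPM in at least 2 of those 11, which kept 15497 of 24411 genes. All mice were homozygous for a Th-MYCN transgene, in which MYCN is driven by the tyrosine hydroxylase promoter, and they developed tumours spontaneously. At a tumour size of about 5 mm, 1 dose was given. Vehicle was given intraperitoneally, CBL0137 intravenously at 40 mg/kg and panobinostat intraperitoneally at 5 mg/kg. The combination group received both drugs, with no separate doses listed for it. Tumours were frozen 16 h after injection, and each library came from the tumour of 1 mouse. The vehicle mice had an intraperitoneal injection alone, so the intravenous route and the drugs cannot be told apart. The transgene acts in cells with an active Th promoter, and RNA was extracted from whole tumour tissue. Age and sex of the mice are not given in the sources used here. The other groups were 3 tumours after CBL0137 alone and 2 after panobinostat alone (labelled replicates 1 and 3, with no replicate 2 among the 11 libraries).

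MYCN is a transcription factor of the MYC family that drives growth and division of sympathetic nerve precursors, and its amplification marks high-risk neuroblastoma. Neuroblasts of this lineage are held in a noradrenergic state by a circuit of transcription factors that includes HAND2, ISL1 and GATA3. CBL0137 binds DNA without breaking it, loosens nucleosomes and traps FACT, the histone chaperone formed by SSRP1 and SUPT16H. Panobinostat blocks the zinc-dependent histone deacetylases and raises histone acetylation. Interferons signal through JAK kinases to transcription factors that bind the interferon-stimulated response element in the promoters of antiviral genes.

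Levels are TPM, transcript abundances corrected for length that sum to 1000000 in each library, so read depth is unknown. Genes at 1 TPM or more numbered 13517, 13103 and 12856 in vehicle replicates 1 to 3 and 14675, 14632 and 14652 in combination replicates 1 to 3. The vehicle tumours held the defining transcripts of sympathetic neuroblasts, among them Isl1 at 208, 198 and 236 TPM and Ddc, the aromatic amino acid decarboxylase, at 252, 271 and 311 TPM. Transcripts of other tissues were present in several libraries. The 16 adrenal cortex markers summed to 80.2, 47.6 and 46.1 TPM with vehicle, against 104, 7757 and 79.5 TPM after both drugs, so combination replicate 2 stood apart. The 14 kidney markers summed to 13.7, 466 and 9.9 TPM in vehicle, with replicate 2 high, against 72.2, 117 and 122 TPM after the combination. Muscle markers reached 999 TPM in combination replicate 1 and at most 88.7 TPM in the other vehicle and combination libraries. A printed count or median of combination against vehicle is also given without combination replicate 2 where it moved by over 1.5 times. Smaller shifts are not listed. Gene lists set against the single drugs were not checked in this way.

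**Figure D1:**
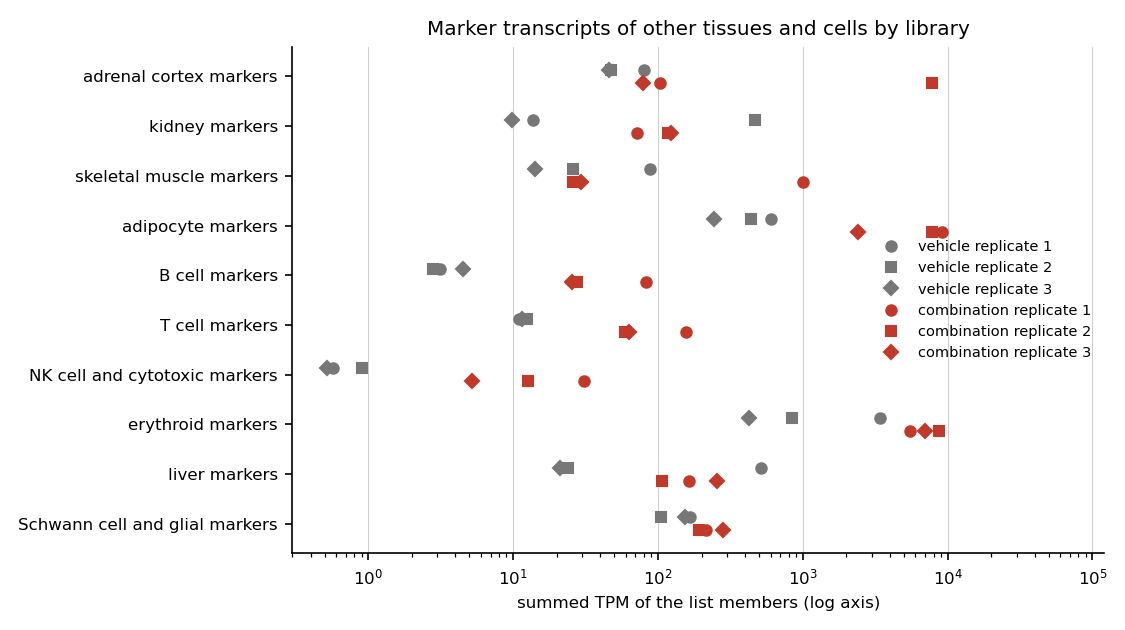
Summed TPM of marker genes of other tissues and cells (rows) in each vehicle (grey) and combination (red) library, on a log axis, with replicates 1 to 3 as circles, squares and diamonds. Adrenal cortex markers stand at 7757 TPM in combination replicate 2 alone, kidney markers at 466 TPM in vehicle replicate 2, and adipocyte markers are higher in all 3 combination libraries.

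Most genes differed between combination and vehicle tumours. With limma on log2(TPM + 1) and Benjamini-Hochberg adjustment, 5568 genes rose (35.9% of those tested), 4666 fell (30.1%) and 5263 did not pass an adjusted p of 0.05. Rises were the larger changes, since 3921 called genes rose at least 2-fold on this scale and 1770 fell at least 2-fold. All 3 combination libraries lay above, or all 3 below, all 3 vehicle libraries for 70.8% of genes, 5951 above and 5014 below. Many genes named below were picked by such non-overlap or by a low adjusted p, so their non-overlap adds no support. Without combination replicate 2, 89.8% of the rises and 91.1% of the falls were called again in the same direction. The share of calls that rose was 54.4% and became 38.4% after quantile normalization, which moved the median log2 change of all genes from 0.08 to -0.26. These shares and the median of 0.08 are the background for each gene group that follows. A change on the log2(TPM + 1) scale understates the fold of genes near 0 TPM.

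**Figure D2:**
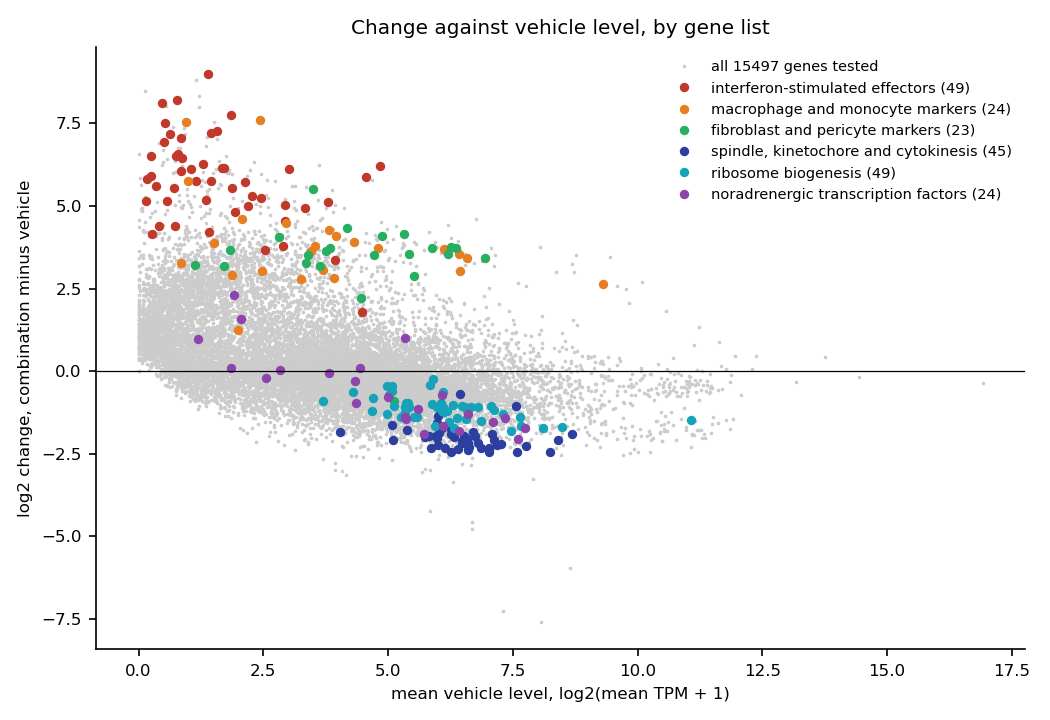
Log2 change from vehicle to combination (vertical axis, on the log2(TPM + 1) scale) against the mean vehicle level (horizontal axis, log2(mean TPM + 1)) for the genes tested (grey) and 6 gene lists (colours, with the number tested). Interferon-stimulated effectors start near 1 TPM and lie highest, with a median of 5.77, whereas spindle and ribosome biogenesis genes start high and have medians of -2.08 and -1.10.

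Many of the largest rises were in antiviral genes that interferon induces. All 49 tested interferon-stimulated effectors rose, with a median log2 change of 5.77 and medians of 6.06, 6.04 and 5.17 in combination replicates 1 to 3. Ifit3, an antiviral protein of the IFIT family that acts with Ifit1 on foreign RNA, stood at 1.45, 2.12 and 1.33 TPM in the vehicle group, compared with 1682, 1826 and 757 TPM in the combination group (log2 change 8.99 ± 0.43, adjusted p = 1.7e-06). Ifit1, which binds RNA lacking the methylation of host caps, went from 0.32, 0.73 and 1.09 TPM to 659, 667 and 289 TPM (log2 change 8.22 ± 0.43, adjusted p = 2.5e-06). For both genes replicate 3 was the lowest combination library and still lay far above all 3 vehicle libraries. Isg15, a ubiquitin-like modifier, had 2.96, 2.73 and 2.09 TPM in vehicle tumours, then 944, 961 and 498 TPM in combination tumours, a ratio of means of 309 (log2 change 7.75 ± 0.37, adjusted p = 1.7e-06). Usp18, which removes Isg15 from proteins and restrains the interferon receptor, rose from 0.49, 0.56 and 0.28 TPM to 333, 332 and 159.7 TPM (log2 change 7.51 ± 0.36, adjusted p = 1.7e-06). Each of these genes was near or below 3 TPM in every vehicle tumour and above 100 TPM in every combination tumour. Ifit3b and Ifit1bl1, close relatives of Ifit3 and Ifit1 whose reads could be split between copies, also rose (log2 changes 8.12, adjusted p = 2.8e-06 and 8.49, adjusted p = 3.2e-06). Slfn4, a Schlafen gene of myeloid cells, reached 499, 326 and 323 TPM from 0.71, 0.56 and 0.12 TPM (log2 change 8.03 ± 0.30, adjusted p = 1.5e-06).

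**Figure D3:**
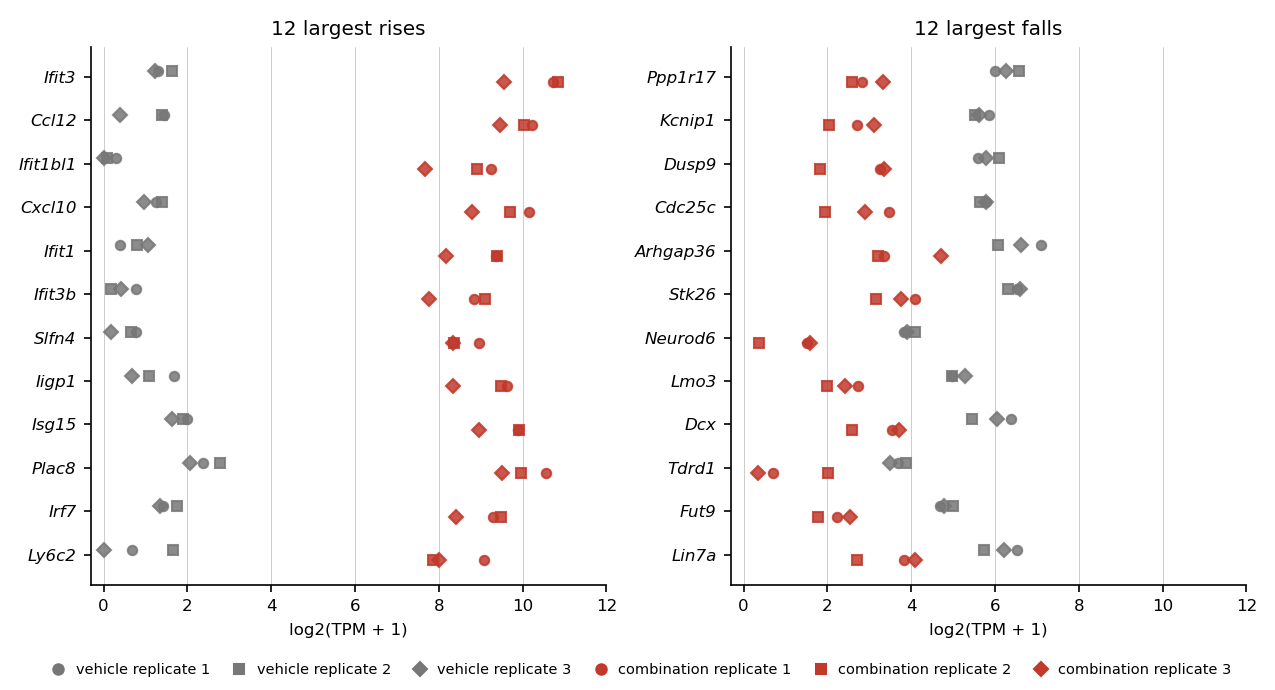
Levels as log2(TPM + 1) in each vehicle (grey) and combination (red) library for the 12 genes with the largest rises (left) and the 12 with the largest falls (right), with replicates 1 to 3 as circles, squares and diamonds. The genes were chosen among those whose groups do not overlap, and combination replicate 2 is the lowest library for each of the falls but Tdrd1.

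Promoters of Ifit1, Ifit3 and Isg15, and of Gbp2 from the interferon-inducible GTPases, are shown as examples from lists whose genes rose together. These genes were picked and do not stand for their whole lists. Each window is the 200 bases before a RefSeq start site (GRCm38.p6), written 5′ to 3′ on the gene's strand, with matches to the interferon-stimulated response element core (GAAA, any 2 bases, GAAA) on either strand in capitals. Ifit1 is at chr19:34640689-34640888, plus strand. Ifit3 is at chr19:34583329-34583528, plus strand. Isg15 is at chr4:156200819-156201018, minus strand. Gbp2 is at chr3:142620463-142620662, plus strand.
Ifit1: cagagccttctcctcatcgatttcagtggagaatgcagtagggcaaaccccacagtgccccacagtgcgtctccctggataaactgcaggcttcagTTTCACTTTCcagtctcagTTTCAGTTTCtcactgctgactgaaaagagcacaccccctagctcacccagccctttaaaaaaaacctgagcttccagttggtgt
Ifit3: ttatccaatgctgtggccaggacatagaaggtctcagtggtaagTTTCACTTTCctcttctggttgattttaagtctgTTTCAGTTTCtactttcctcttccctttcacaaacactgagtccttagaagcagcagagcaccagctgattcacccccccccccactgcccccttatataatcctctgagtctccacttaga
Isg15: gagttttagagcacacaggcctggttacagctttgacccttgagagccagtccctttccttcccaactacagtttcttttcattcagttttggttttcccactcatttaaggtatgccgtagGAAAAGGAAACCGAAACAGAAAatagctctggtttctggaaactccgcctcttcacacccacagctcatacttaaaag
Gbp2: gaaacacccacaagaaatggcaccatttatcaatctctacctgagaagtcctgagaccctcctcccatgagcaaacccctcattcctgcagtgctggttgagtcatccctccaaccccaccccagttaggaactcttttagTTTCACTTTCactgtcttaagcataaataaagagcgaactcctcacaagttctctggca
Ifit1 and Ifit3 each held 2 matches, Isg15 held 3 that overlap each other, and Gbp2 held 1. Over the 250 bases before the start, the core was in 2.98% of all promoter windows of the RefSeq table, in 2.73% of those of tested genes, in 3.97% of windows of genes that rose and in 2.18% of those that fell. It was in 28.9% of the 45 windows matched for interferon-stimulated effectors and in 81.8% of the 11 windows of interferon-inducible GTPases. A match describes the letters of a window and not a bound site.

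The transducers of the interferon signal rose as well, in 26 of 26 tested genes with a median of 2.50. Irf7, which amplifies type I interferon production, went from 1.65, 2.39 and 1.55 TPM to 623, 719.8 and 337 TPM (log2 change 7.55 ± 0.41, adjusted p = 2.6e-06). Irf9, a DNA-binding factor of the interferon response, rose from 6.12, 4.37 and 4.09 TPM to 76.2, 88.1 and 59.5 TPM (log2 change 3.69 ± 0.24, adjusted p = 4.9e-06). Groups did not overlap for either factor, and combination replicate 3 was the lowest of the treated libraries each time. Ifi204, a DNA-sensing member of the p200 family, reached 473, 452 and 263 TPM from 1.86, 2.29 and 1.74 TPM (log2 change 7.02 ± 0.31, adjusted p = 1.5e-06). Ifng, the type II interferon, stayed under the filter on low values.

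All 17 interferon-inducible GTPases rose, with a median of 6.43. These proteins attack the vacuoles of intracellular microbes. Iigp1 measured 2.18, 1.11 and 0.61 TPM with vehicle, against 784, 718 and 322 TPM after both drugs (log2 change 8.0 ± 0.46, adjusted p = 3.2e-06). Gbp2, a guanylate-binding protein, went from 2.36, 1.94 and 2.76 TPM to 398, 371 and 194 TPM (log2 change 6.53 ± 0.39, adjusted p = 3.9e-06). The near-identical Tgtp1 and Tgtp2 may share reads, and Tgtp1 is listed at 0.12, 0.74 and 0.13 TPM with vehicle, against 190.1, 178 and 111 TPM after both drugs (log2 change 6.91 ± 0.41, adjusted p = 3.6e-06).

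Antigen presentation by MHC class I rose in 22 of 22 tested genes with a median of 4.29. B2m, the light chain common to all class I molecules, rose from 94.8, 123 and 103 TPM to 2949, 3281 and 1805 TPM (log2 change 4.59 ± 0.36, adjusted p = 8.8e-06). H2-K1, a classical heavy chain, went from 38.1, 40.3 and 25.5 TPM to 953, 885 and 457 TPM (log2 change 4.38 ± 0.44, adjusted p = 2.3e-05). Tap1, which carries peptides into the endoplasmic reticulum, stood at 1.14, 1.45 and 1.62 TPM in the vehicle group, compared with 172, 157 and 83.4 TPM in the combination group (log2 change 5.78 ± 0.44, adjusted p = 7.6e-06). Groups did not overlap for these 3 genes, and combination replicate 3 was again the lowest of the treated libraries. Psmb8, an immunoproteasome subunit that changes how peptides are cut, rose to 279.9, 289 and 160.2 TPM from 3.76, 5.43 and 5.53 TPM (log2 change 5.33 ± 0.38, adjusted p = 6.1e-06). The heavy chain genes resemble each other, so reads may be split among them. In the class II route, which serves professional antigen-presenting cells, 9 of 11 genes rose, among them H2-Aa from 38.2, 38.9 and 35.7 TPM to 716, 532 and 344 TPM (log2 change 3.72 ± 0.43, adjusted p = 4.5e-05). H2-Oa and H2-Ob, the brake on peptide loading, had log2 changes of 1.27, adjusted p = 0.10 and 1.94, adjusted p = 0.056.

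Secreted signals followed, with 28 of 28 tested chemokines and cytokines rising (median 4.58). Cxcl10, which attracts CXCR3-bearing T cells, had 1.36, 1.62 and 0.96 TPM in vehicle tumours, then 1133, 825 and 441 TPM in combination tumours (log2 change 8.34 ± 0.48, adjusted p = 3.2e-06). Ccl12, a mouse ligand of the monocyte receptor CCR2, went from 1.72, 1.63 and 0.3 TPM to 1192, 1053 and 698 TPM (log2 change 8.83 ± 0.51, adjusted p = 3.2e-06). Il1rn, the antagonist of interleukin-1, rose from 2.68, 2.35 and 2.49 TPM to 199, 199 and 274 TPM (log2 change 5.99 ± 0.39, adjusted p = 4.7e-06), and was highest in combination replicate 3, unlike the interferon genes above. Among NF-kB subunits and targets 20 of 22 rose (median 2.62). Nfkbia, the inhibitor that NF-kB induces against itself, went from 17.4, 18.2 and 17.4 TPM to 58.4, 62.7 and 61.8 TPM (log2 change 1.73 ± 0.19, adjusted p = 3.3e-05). Vcam1, an adhesion molecule for leukocytes, went from 22.6, 33.3 and 29.3 TPM to 199, 383 and 222 TPM (log2 change 3.15 ± 0.29, adjusted p = 1.7e-05). The 3 treated libraries were close to each other for Nfkbia, and replicate 2 was highest for Vcam1. The second inhibitor, Nfkbib, fell (log2 change -0.53 ± 0.13, adjusted p = 0.005), and Sod2 did not pass (log2 change 0.06 ± 0.15, adjusted p = 0.75).

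Immune checkpoint genes rose in 11 of 13. Cd274, the gene of PD-L1, measured 0.91, 0.84 and 0.78 TPM with vehicle, against 90.5, 62.4 and 37.5 TPM after both drugs (log2 change 5.04 ± 0.44, adjusted p = 1.3e-05). Lgals9, the gene of galectin-9, went from 6.94, 8.04 and 4.89 TPM to 306, 325 and 218 TPM (log2 change 5.22 ± 0.34, adjusted p = 4.8e-06). Cd47, a signal that restrains phagocytes, rose from 16.4, 11.5 and 11.3 TPM to 149, 136 and 103 TPM (log2 change 3.21 ± 0.28, adjusted p = 1.3e-05). Groups did not overlap for these 3 ligands. Cd40, a receptor that activates antigen-presenting cells, stood at 0.22, 0.53 and 0.54 TPM in the vehicle group, compared with 36.4, 26.7 and 15.3 TPM in the combination group (log2 change 4.17 ± 0.42, adjusted p = 2.3e-05). Ctla4 and Cd276 did not pass (log2 changes 0.78, adjusted p = 0.087 and -0.01, adjusted p = 0.95).

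Transcripts of myeloid cells were higher in every combination tumour. Fewer cells of a type and less RNA per cell cannot be told apart in these bulk samples, and the same holds for more cells and more RNA per cell. All 24 macrophage and monocyte markers rose (median 3.67), and their summed level was 979, 1217 and 1171 TPM with vehicle, against 10435, 13712 and 10215 TPM after both drugs. Fcgr1, the high-affinity receptor for IgG and itself inducible by interferon, went from 0.92, 0.75 and 1.26 TPM to 134, 109 and 80.8 TPM (log2 change 5.76 ± 0.29, adjusted p = 2.5e-06). Ly6c2, a marker of inflammatory monocytes, had 0.6, 2.17 and 0 TPM in vehicle tumours, then 540.5, 232 and 258 TPM in combination tumours (log2 change 7.54 ± 0.47, adjusted p = 4.3e-06). Plac8, also expressed by monocytes, rose from 4.2, 5.89 and 3.17 TPM to 1505, 990.1 and 724 TPM (log2 change 7.60 ± 0.36, adjusted p = 1.7e-06). Combination replicate 1 was highest for these 3 genes, whereas the summed markers were highest in replicate 2. Of the neutrophil markers 7 of 7 tested rose, led by S100a8 from 5.64, 1.34 and 0.98 TPM to 181, 221 and 188 TPM (log2 change 5.97 ± 0.46, adjusted p = 8.0e-06), while 5 granule and identity genes (Camp, Ngp, Ltf, Elane and Mpo) stayed under the filter. Dendritic cell markers rose in 8 of 9, among them Clec9a of cross-presenting cells from 0.23, 0.2 and 0.2 TPM to 7.04, 7.16 and 4.73 TPM (log2 change 2.58 ± 0.31, adjusted p = 6.3e-05).

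Lymphocyte transcripts were low in all 6 tumours and varied among the treated libraries. The T cell markers summed to 11, 12.6 and 11.5 TPM with vehicle, against 157, 59.6 and 62.9 TPM after both drugs, and 8 of 16 tested markers rose. Cd4, which mouse macrophages can also carry at low levels, went from 1.95, 2.75 and 2.96 TPM to 16.6, 26 and 15 TPM (log2 change 2.48 ± 0.37, adjusted p = 2.3e-04). Cd8a, the co-receptor of cytotoxic T cells, measured 0.22, 0.45 and 0.12 TPM with vehicle, against 3.64, 1.16 and 0.82 TPM after both drugs (log2 change 1.07 ± 0.41, adjusted p = 0.041), with replicate 1 highest. Called T cell markers numbered 3 without combination replicate 1, 4 without vehicle replicate 1 or 2, 5 without vehicle replicate 3, 11 without combination replicate 2, 10 without combination replicate 3, and 4 after quantile normalization. The call on Cd8a was lost without any 1 vehicle library (adjusted p of 0.089, 0.058 and 0.11) and without combination replicate 1 (adjusted p = 0.16). Gzmb, the cytotoxic protease granzyme B, was listed at 0 in all 3 vehicle tumours and at 8.93, 3.95 and 0.83 TPM after the combination (adjusted p = 0.0045). The other NK cell and cytotoxic markers tested, Klrk1, Gzma and Nkg7, rose too, but 7 of the 11 listed, Ncr1 and Prf1 among them, stayed under the filter. Called NK and cytotoxic markers numbered 2 without combination replicate 1, when Gzma was among those lost, and 2 after quantile normalization. B cell markers summed to 3.12, 2.79 and 4.5 TPM with vehicle, against 82.4, 27.8 and 25.3 TPM after both drugs, and 1 of 11 rose, which was Cd22 (log2 change 2.87 ± 0.39, adjusted p = 1.1e-04). The lineage markers Ms4a1 and Cd79a were at 15.7, 1.6 and 2.56 TPM and 9.95, 0.95 and 2.08 TPM in the treated libraries and did not pass (log2 changes 2.04, adjusted p = 0.12 and 1.66, adjusted p = 0.15).

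Stromal transcripts of vessels, matrix and fat were higher in every combination tumour. All 17 endothelial markers rose (median 3.22), among them Pecam1, an adhesion molecule of vessel walls, from 15, 13.3 and 8.79 TPM to 97.8, 167 and 108 TPM (log2 change 3.22 ± 0.33, adjusted p = 2.5e-05). Vwf, the clotting factor stored in endothelium, went from 1.06, 0.66 and 0.83 TPM to 14.1, 15.3 and 20.6 TPM (log2 change 3.24 ± 0.30, adjusted p = 1.7e-05). Fibroblast and pericyte markers rose in 22 of 23 (median 3.56), with Fbln1 falling (log2 change -0.91 ± 0.30, adjusted p = 0.021). Sparc, a matrix glycoprotein, stood at 91.6, 65.1 and 72 TPM in the vehicle group, compared with 936, 1216 and 949 TPM in the combination group (log2 change 3.75 ± 0.30, adjusted p = 8.6e-06). Timp1, an inhibitor of matrix proteases, rose from 14.1, 10 and 6.84 TPM to 573, 359.6 and 612 TPM (log2 change 5.52 ± 0.40, adjusted p = 6.5e-06). The treated libraries were close to each other for Sparc and differed for Timp1, where replicate 2 was lowest. Of the collagen genes 32 of 37 tested rose, among them Col6a1 from 15.5, 12.7 and 12 TPM to 179, 246 and 148 TPM (log2 change 3.71 ± 0.26, adjusted p = 6.1e-06). All 10 adipocyte markers rose (median 3.64), and their summed level was 606, 439.7 and 245 TPM with vehicle, against 9172, 7774 and 2417 TPM after both drugs. Adiponectin (Adipoq) had 22.5, 17.3 and 8.44 TPM in vehicle tumours, then 496, 297 and 105 TPM in combination tumours (log2 change 3.97 ± 0.68, adjusted p = 5.3e-04). Fabp4, the fatty acid carrier of fat cells, went from 404, 232 and 155 TPM to 4611, 4585 and 1677 TPM (log2 change 3.74 ± 0.53, adjusted p = 1.6e-04). Replicate 3 was the lowest treated library for both genes, so the treated libraries differed among themselves more than for Sparc or Pecam1. Haemoglobin genes of red cells were also higher, Hba-a1 at 1507, 428 and 372 TPM and 3151, 4218 and 3951 TPM (log2 change 2.59 ± 0.82, adjusted p = 0.017), but its call was lost without vehicle replicate 2 (adjusted p = 0.058) or replicate 3 (adjusted p = 0.064). Of the erythroid list 3 of 5 rose, calls that were lost without either of those libraries, with 1 left without combination replicate 2 and 2 without combination replicate 1 or 3.

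Glial and other tissue markers changed in smaller shares of their lists. Of the Schwann cell and glial list, 9 of 15 members rose and 2 fell (median 1.05), with S100b at 0.53, 0.27 and 0.45 TPM with vehicle, against 7.97, 13.8 and 4.05 TPM after both drugs (log2 change 2.63 ± 0.42, adjusted p = 3.2e-04), and Mbp and Gfra3 falling (log2 changes -0.56, adjusted p = 0.033 and -1.22, adjusted p = 0.045). Neither fall was called without vehicle replicate 1 or 3 or without combination replicate 1 or 2, and 1 was called without combination replicate 3. The list's median was 1.60 without combination replicate 2, and 0.61 with 6 rises after quantile normalization. Of the adrenal cortex markers 3 of 11 tested rose, genes that adipocytes also express. Mc2r, the receptor for ACTH, measured 0.33, 0.07 and 0.08 TPM with vehicle, against 7.51, 44.5 and 1.62 TPM after both drugs (log2 change 3.12 ± 0.80, adjusted p = 0.006). Its accessory protein Mrap went from 4.81, 0.97 and 1.77 TPM to 38.2, 147 and 15 TPM (log2 change 3.84 ± 0.77, adjusted p = 0.0014). The lipoprotein receptor Scarb1 went from 19.8, 18.8 and 16.4 TPM to 28.8, 162 and 33.3 TPM (log2 change 1.51 ± 0.51, adjusted p = 0.024). All 3 were highest in combination replicate 2, and the call on Scarb1 was lost without vehicle replicate 2 (adjusted p = 0.051) or 3 (adjusted p = 0.065). The list's median from the vehicle mean was -0.43, 7.65 and -0.03 in combination replicates 1 to 3. Of the kidney markers 1 of 5 rose, which was Aqp1, a water channel that endothelium also carries (log2 change 3.12 ± 0.35, adjusted p = 4.2e-05). None of the 14 muscle and 9 liver markers tested passed limma's adjusted threshold, and 0 of each list had an unadjusted p under 0.05.

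The machinery of cell division fell in every combination tumour. All 45 spindle, kinetochore and cytokinesis genes fell, with a median of -2.08 and medians of -1.66, -2.85 and -1.71 in combination replicates 1 to 3, so replicate 2, the library with adrenal cortex transcripts, was lowest. Mki67, the proliferation antigen, stood at 408, 281 and 325 TPM in the vehicle group, compared with 112, 38.5 and 106 TPM in the combination group (log2 change -2.10 ± 0.36, adjusted p = 5.3e-04). Cenpa, the histone H3 variant of centromeres, fell from 137, 139.7 and 157 TPM to 39.2, 18.7 and 35 TPM (log2 change -2.25 ± 0.25, adjusted p = 4.1e-05). Aspm, a spindle pole protein, went from 71.2, 53 and 65.5 TPM to 17.6, 7.99 and 13.8 TPM (log2 change -2.24 ± 0.26, adjusted p = 5.3e-05). Groups did not overlap for these 3 genes, and without combination replicate 2 all 45 spindle genes were still called as falls, with a median of -1.69. Summed myeloid, stromal and fat markers were higher in the same libraries, and their part in these falls in TPM was not tested. DNA replication and nucleotide synthesis fell in 48 of 48 genes (median -1.52), such as Pold2, a subunit of DNA polymerase delta, from 99.4, 118 and 96.4 TPM to 29.1, 18.2 and 34 TPM (log2 change -1.95 ± 0.22, adjusted p = 4.2e-05). Orc6 of the origin recognition complex fell from 112, 100.3 and 111 TPM to 37.7, 24.4 and 43.5 TPM (log2 change -1.63 ± 0.20, adjusted p = 5.8e-05). In homologous recombination and the DNA damage checkpoint 27 of 34 fell (median -1.25), including Atr, the kinase that answers stalled forks (log2 change -1.04 ± 0.11, adjusted p = 3.1e-05), and Rad51d rose (log2 change 0.69 ± 0.16, adjusted p = 0.0039).

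Clustered histone genes, which are transcribed during DNA synthesis, fell in 62 of 68 with medians of -1.26, -3.01 and -1.15 in combination replicates 1 to 3. Their share of all TPM was 8.31%, 8.71% and 9.6% in vehicle and 3.63%, 1.26% and 3.96% after the combination. The smallest share was in combination replicate 2, and the groups did not overlap. These genes are close copies, so levels of single members are uncertain. Hist1h2bc is listed at 1862, 2107 and 2284 TPM with vehicle, against 886, 502 and 1010.3 TPM after both drugs (log2 change -1.44 ± 0.23, adjusted p = 3.9e-04).

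Promoters of 3 of the division genes are shown because such promoters are known for paired CCAAT boxes and the cell cycle homology region. Capitals mark matches on either strand to CCAAT and to TTTGAA. Mki67 is at chr7:135716380-135716579, minus strand. Cenpa is at chr5:30666686-30666885, plus strand. Aspm is at chr1:139454573-139454772, plus strand.
Mki67: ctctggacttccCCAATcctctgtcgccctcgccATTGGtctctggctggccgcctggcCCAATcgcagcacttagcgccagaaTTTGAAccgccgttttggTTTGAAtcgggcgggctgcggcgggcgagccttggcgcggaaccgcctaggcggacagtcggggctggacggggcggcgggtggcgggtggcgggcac
Cenpa: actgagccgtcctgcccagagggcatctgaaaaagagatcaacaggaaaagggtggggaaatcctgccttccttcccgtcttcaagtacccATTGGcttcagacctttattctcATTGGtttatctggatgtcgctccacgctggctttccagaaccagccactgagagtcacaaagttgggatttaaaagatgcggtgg
Aspm: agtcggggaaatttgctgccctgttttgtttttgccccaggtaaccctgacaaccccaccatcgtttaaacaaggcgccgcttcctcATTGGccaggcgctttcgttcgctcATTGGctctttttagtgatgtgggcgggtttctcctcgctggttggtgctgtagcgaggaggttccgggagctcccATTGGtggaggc
Mki67 held 3 CCAAT and 2 TTTGAA matches, Cenpa held 2 CCAAT matches and Aspm 3. The E-box CACGTG and the AP-1 motif TGANTCA were searched in the same way. The E-box was in 6.02% of all windows, 7.9% of those of tested genes, 7.4% of those of genes that rose and 8.27% of those that fell. The AP-1 motif was in 6.75%, 4.85%, 6.67% and 3.44% in that order. CCAAT was in 33.8% of all RefSeq windows of 250 bases, in 35.1% of those of tested genes, in 71.7% of the 46 spindle gene windows and in 82.3% of the 62 clustered histone windows. TTTGAA was in 16%, 11.1%, 32.6% and 41.9% of the same windows. Neither motif was particular to lists that fell. In genes that rose and fell, CCAAT was in 32.6% and 37% of windows and TTTGAA in 11.1% and 11.9%. Among lists that rose, CCAAT was in 70% of 20 MHC class I, 31.1% of 45 interferon-stimulated effector and 18.2% of 11 GTPase windows. TTTGAA was in 5%, 22.2% and 45.5% of these. In DNA replication windows CCAAT was in 56.5%, and TTTGAA was near its share for tested genes. Histone promoters resemble each other, so their windows are not independent.

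Cyclins and their kinases mostly fell, 21 of 28 against 5 that rose (median -1.13). Ccnd1, cyclin D1, had 375, 278 and 309 TPM in vehicle tumours, then 106, 72.8 and 119.5 TPM in combination tumours (log2 change -1.70 ± 0.18, adjusted p = 2.7e-05). Cdk4, its kinase partner, fell from 649.9, 665 and 634 TPM to 231, 173 and 286 TPM (log2 change -1.52 ± 0.17, adjusted p = 4.4e-05). Their paralogues went the other way. Ccnd2 rose from 3.37, 1.81 and 1.43 TPM to 59.5, 51.6 and 31.9 TPM (log2 change 3.93 ± 0.41, adjusted p = 2.8e-05). Cdk6 rose from 1.31, 0.61 and 0.73 TPM to 12.5, 15.7 and 12.1 TPM (log2 change 2.95 ± 0.31, adjusted p = 3.0e-05). Ccnd3, Rb1 and Rbl2 were the remaining rises. Cdc25c, the phosphatase that activates CDK1 at mitotic entry, fell from 53.8, 48.9 and 54.4 TPM to 10.1, 2.86 and 6.42 TPM (log2 change -2.97 ± 0.34, adjusted p = 4.6e-05). Among the CDK inhibitors 4 of 8 rose and 3 fell. Cdkn1a, the gene of p21, rose from 6.47, 4.56 and 3.86 TPM to 48.8, 55.7 and 63.5 TPM (log2 change 3.27 ± 0.36, adjusted p = 3.6e-05). Cdkn1b, the gene of p27, fell from 69, 64.3 and 79.8 TPM to 28, 37.5 and 35.2 TPM (log2 change -1.06 ± 0.12, adjusted p = 4.3e-05).

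Across the lists, medians of interferon, myeloid and stromal genes lay above the vehicle libraries and those of division, ribosome and neuronal genes below them in each treated library.

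**Figure D4:**
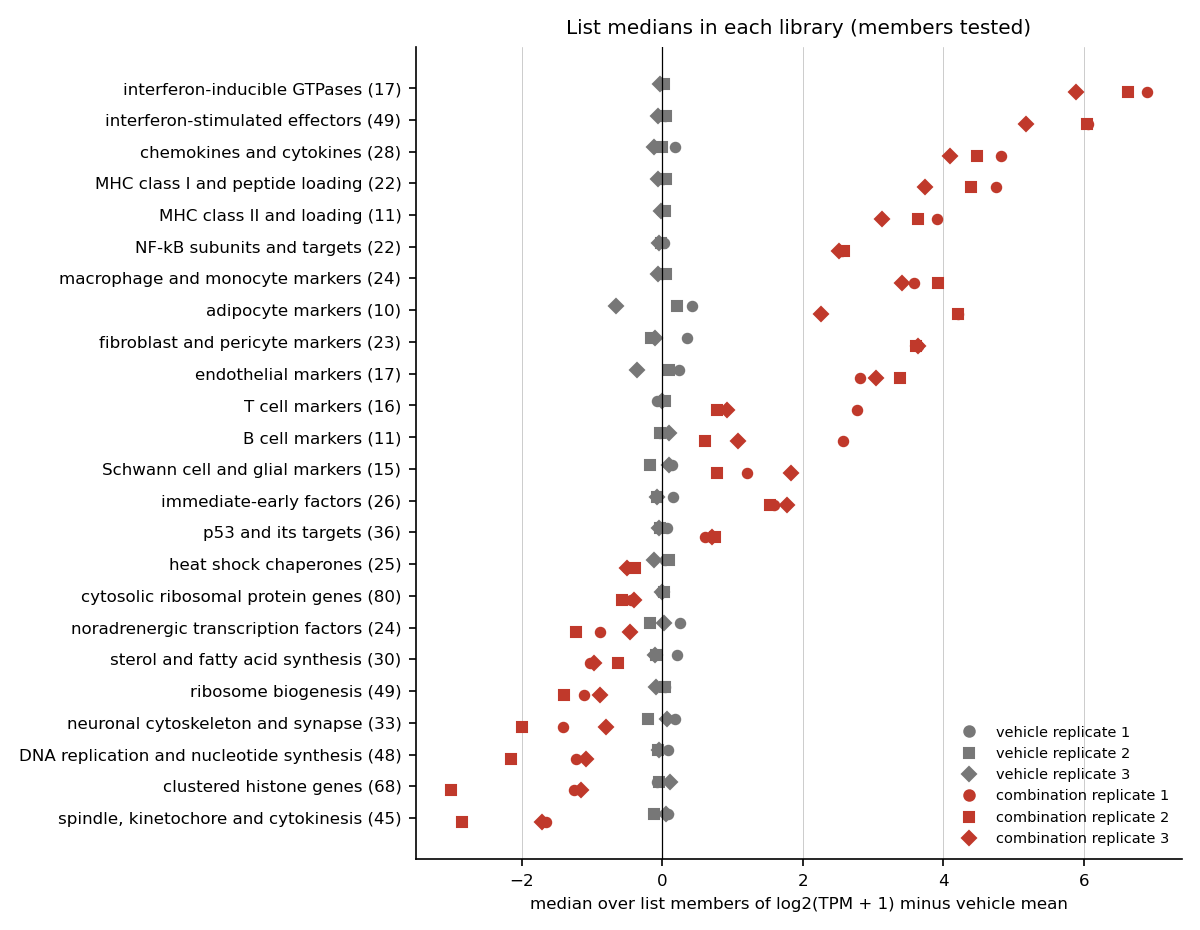
Median over the tested members of each list (rows, with the number tested) of log2(TPM + 1) minus the vehicle mean, for each vehicle (grey) and combination (red) library, with replicates 1 to 3 as circles, squares and diamonds. Combination replicate 2 is the lowest library for spindle (-2.85) and clustered histone genes (-3.01), and combination replicate 1 is the highest for T and B cell markers.

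Growth functions that MYC proteins are known to drive were lower, while mouse Mycn itself was not called. Mycn measured 5.69, 6.46 and 5.94 TPM with vehicle, against 3.12, 5.37 and 11.9 TPM after both drugs (log2 change -0.01 ± 0.38, adjusted p = 0.98), so the treated libraries lay on both sides of the vehicle range. The human transgene was not analysed here. Ribosome biogenesis fell in 48 of 49 genes (median -1.10), and Pno1 did not pass. Nop16, a nucleolar protein, fell from 73.1, 82 and 64.2 TPM to 23.8, 23.5 and 25.4 TPM (log2 change -1.55 ± 0.12, adjusted p = 7.9e-06). Dkc1, the pseudouridine synthase of small nucleolar particles, went from 80.2, 83.8 and 73.6 TPM to 26.1, 17.7 and 27 TPM (log2 change -1.73 ± 0.16, adjusted p = 1.6e-05). Rrn3, which recruits RNA polymerase I to ribosomal DNA, stood at 97.2, 92.8 and 93.6 TPM in the vehicle group, compared with 41.3, 38.2 and 45.4 TPM in the combination group (log2 change -1.17 ± 0.09, adjusted p = 9.2e-06). All 3 were lower in every treated library than in any vehicle library. Cytosolic ribosomal protein genes fell in 65 of 80 by less (median -0.46), a count that became 40 with 3 rising after quantile normalization. In the MYC, MAX and MXD network Myc (log2 change 1.59 ± 0.34, adjusted p = 0.0022), Max, Mxd1 (log2 change 2.51 ± 0.25, adjusted p = 2.3e-05) and Mxd4 rose, and Mycl, Mxd3, Mxi1 and Mga fell. These 4 rises and 4 falls of 12 genes are 33.3% each way, near the background of 35.9% and 30.1%.

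Sterol and fatty acid synthesis fell in 20 of 30 tested genes (median -0.99). Sqle, squalene epoxidase, fell from 88, 80.3 and 81.9 TPM to 21.9, 19 and 28.9 TPM (log2 change -1.82 ± 0.15, adjusted p = 9.7e-06). Cyp51, the lanosterol demethylase, fell from 48.3, 41.5 and 38.8 TPM to 9.23, 11.7 and 12.4 TPM (log2 change -1.86 ± 0.15, adjusted p = 1.1e-05). Srebf1 and Scd1 of fatty acid synthesis rose (log2 changes 1.92, adjusted p = 2.3e-04 and 3.29, adjusted p = 9.3e-04), beside the higher adipocyte markers, whose part in this was not tested.

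Genes of the chromatin machinery, the drugs' targets among them, were mostly lower. Ssrp1, a FACT subunit, had 240.3, 223 and 219.8 TPM in vehicle tumours, then 110.2, 85.5 and 116 TPM in combination tumours (log2 change -1.14 ± 0.14, adjusted p = 6.0e-05). Supt16, its partner, fell from 182, 152 and 156 TPM to 80.6, 61.1 and 82.9 TPM (log2 change -1.12 ± 0.15, adjusted p = 9.7e-05). Hdac2 fell from 331, 299 and 303 TPM to 119.7, 99.3 and 137 TPM (log2 change -1.39 ± 0.14, adjusted p = 2.2e-05). Hdac1 was at 53.8, 41 and 44.4 TPM and 51.6, 46.5 and 43.2 TPM in vehicle and combination libraries, with overlapping groups (log2 change 0.03 ± 0.12, adjusted p = 0.86). Over histone deacetylases, FACT and chaperones 17 of 23 fell and 3 rose, which were Hdac7, Hdac8 and Daxx (log2 change 1.67 ± 0.25, adjusted p = 2.1e-04). DNA methylation and heterochromatin genes fell in 16 of 25, among them Trim28, a co-repressor of transposable elements, from 289, 281 and 276 TPM to 110.0, 81 and 131 TPM (log2 change -1.41 ± 0.15, adjusted p = 3.4e-05). Cbx3, a heterochromatin protein 1, went from 769, 679 and 738 TPM to 229, 161 and 242 TPM (log2 change -1.80 ± 0.17, adjusted p = 1.6e-05), and Ezh1, Morc3, Fam208a and Atf7ip rose. Replication-independent histone variants fell in 9 of 13, with H2afz from 1972, 1938 and 2107 TPM to 656, 456 and 641 TPM (log2 change -1.80 ± 0.18, adjusted p = 2.2e-05), while H2afj and H3f3b rose. H1f0, a linker histone known to rise with deacetylase inhibitors, measured 211, 158 and 190.3 TPM with vehicle, against 137, 122 and 198 TPM after both drugs and did not pass (log2 change -0.31 ± 0.21, adjusted p = 0.21). The treated libraries overlapped vehicle for Hdac1 and H1f0. Kat2b, the acetyltransferase PCAF, rose from 18, 16 and 17.4 TPM to 49.7, 54.8 and 32.3 TPM (log2 change 1.33 ± 0.19, adjusted p = 2.0e-04). Acetyltransferases and BET readers fell in 7 of 13.

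The noradrenergic circuit was lower in part. Of the noradrenergic transcription factors 14 of 24 tested fell and 3 rose (median -0.87). Isl1, a homeobox factor of sympathetic neurons, fell from 208, 198 and 236 TPM to 66.4, 46.6 and 82.6 TPM (log2 change -1.73 ± 0.23, adjusted p = 1.1e-04). Pbx3, a homeobox cofactor, fell from 40.2, 44.5 and 34.7 TPM to 11.8, 15.3 and 14.3 TPM (log2 change -1.46 ± 0.17, adjusted p = 5.3e-05). Every treated library lay below all 3 vehicle libraries for both genes. The rises were Ebf1 from 3.69, 2.54 and 2.04 TPM to 19.8, 22.7 and 11.3 TPM (log2 change 2.30 ± 0.33, adjusted p = 1.8e-04), Ebf2 and Zeb2 (log2 change 1.01 ± 0.10, adjusted p = 2.2e-05). Gata2 and Hand1 were among the 7 that did not pass. The part of the higher myeloid and stromal transcripts in the falls was not tested, nor that of adrenal cortex transcripts in combination replicate 2.

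Catecholamine genes split, with 11 of 27 rising and 6 falling, shares of 40.7% and 22.2% beside the background of 35.9% and 30.1%. The list's median was 0.668, with 0.175, 1.275 and 0.545 in combination replicates 1 to 3. Replicate 2, the library with adrenal cortex transcripts, was highest, and the part of those transcripts was not tested. Without that library the median was 0.315, with 10 rises and 5 falls. Th, the rate-limiting enzyme and the gene whose promoter drives the transgene, stood at 179, 99.6 and 132 TPM in the vehicle group, compared with 150.4, 416 and 329 TPM in the combination group, with overlapping groups (log2 change 1.04 ± 0.37, adjusted p = 0.03). The call on Th was lost without combination replicate 2 (log2 change 0.74, adjusted p = 0.11), combination replicate 3 (adjusted p = 0.086), vehicle replicate 2 (adjusted p = 0.10) or vehicle replicate 3 (adjusted p = 0.067). Dbh, which makes noradrenaline, went from 48.9, 14.8 and 33.4 TPM to 53, 106 and 96.9 TPM (log2 change 1.46 ± 0.38, adjusted p = 0.006). Ddc, which acts between these enzymes, fell from 252, 271 and 311 TPM to 112, 83.1 and 122 TPM (log2 change -1.40 ± 0.17, adjusted p = 5.3e-05). Scg3 and Scg5 of secretory granules fell (log2 changes -1.09, adjusted p = 1.4e-04 and -1.27, adjusted p = 9.2e-05) and the granule peptide Vgf rose (log2 change 2.67 ± 0.42, adjusted p = 3.0e-04).

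**Figure D5:**
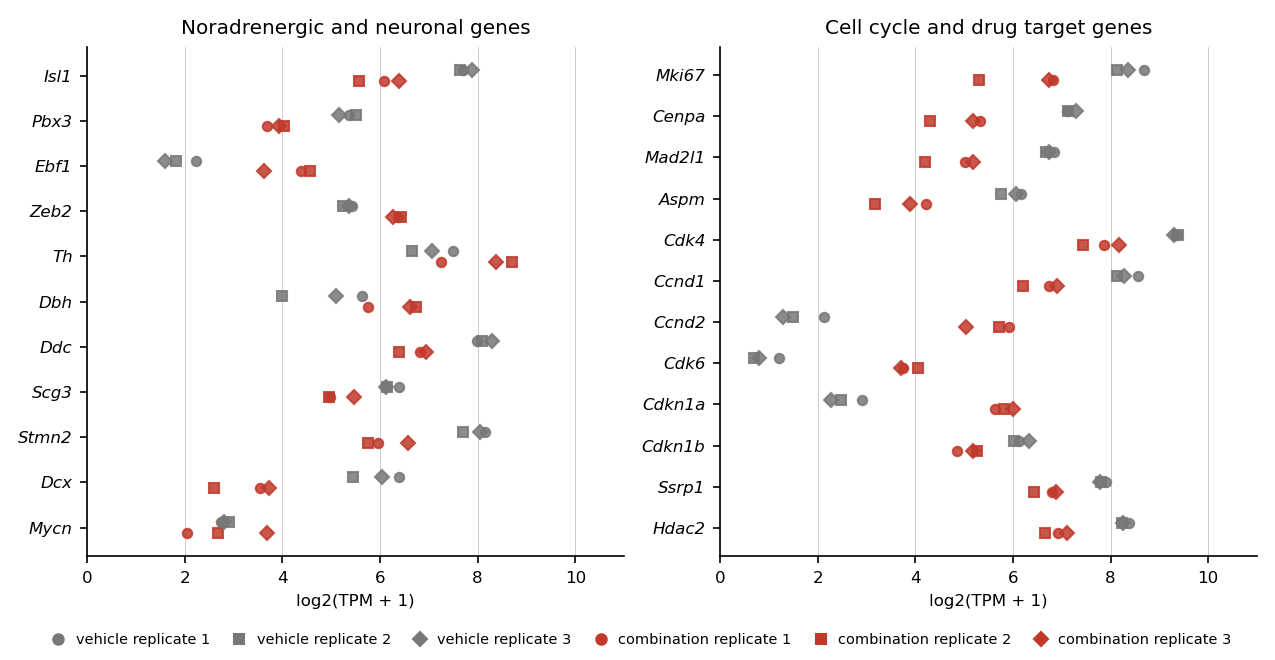
Levels as log2(TPM + 1) in each vehicle (grey) and combination (red) library for noradrenergic and neuronal genes (left) and for cell cycle and drug target genes (right), with replicates 1 to 3 as circles, squares and diamonds. Isl1, Pbx3, Stmn2 and Dcx are lower in all 3 combination libraries, Th overlaps, and Ccnd2 and Cdk6 are higher while Ccnd1 and Cdk4 are lower.

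Structural genes of immature neurons fell in 27 of 33 (median -1.27). Dcx, the microtubule protein doublecortin of migrating neuroblasts, had 82.3, 42.8 and 65.2 TPM in vehicle tumours, then 10.7, 5.02 and 12.2 TPM in combination tumours (log2 change -2.68 ± 0.30, adjusted p = 4.1e-05). Stmn3, a stathmin that destabilizes microtubules, fell from 205, 182 and 208 TPM to 41.1, 36.1 and 50.7 TPM (log2 change -2.20 ± 0.13, adjusted p = 3.9e-06). Stmn4, its relative, fell from 156, 127 and 124 TPM to 24.2, 17.6 and 39 TPM (log2 change -2.36 ± 0.25, adjusted p = 2.7e-05). Each of the 3 lay below every vehicle library in every treated one, which was required of Dcx to be listed among the largest falls. Prph, peripherin of peripheral neurons, and Dpysl3 rose (log2 changes 2.56, adjusted p = 4.0e-04 and 1.31, adjusted p = 6.3e-04). Neurotrophin receptors and their ligands rose in 8 of 15 and fell in 3, with 4 rises left after quantile normalization. The ligand Bdnf fell from 21.9, 14 and 18.3 TPM to 2.98, 1.17 and 2.6 TPM (log2 change -2.58 ± 0.32, adjusted p = 7.3e-05). Mdk, the growth factor midkine, fell from 159, 116 and 114 TPM to 55.3, 28.2 and 59.8 TPM (log2 change -1.48 ± 0.27, adjusted p = 7.1e-04). Groups did not overlap for either ligand.

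Lin28b, an RNA-binding protein that blocks let-7 and is known as a neuroblastoma oncogene, fell from 25.7, 22.4 and 22.3 TPM to 6.29, 3.04 and 7.34 TPM (log2 change -1.97 ± 0.26, adjusted p = 1.0e-04). Dlk1 of sympathoadrenal progenitors fell from 245, 204 and 218 TPM to 63.8, 58.8 and 104 TPM (log2 change -1.59 ± 0.21, adjusted p = 1.2e-04). Igf2bp2 (log2 change 3.10 ± 0.28, adjusted p = 1.4e-05), Igf2 and H19 rose. The rises of this list numbered 2 without vehicle replicate 3 or without combination replicate 1 or 3.

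The largest falls outside these lists included neuronal and signalling genes. Ppp1r17, a phosphatase inhibitor, measured 62.8, 94.4 and 76.3 TPM with vehicle, against 6.05, 4.98 and 9.02 TPM after both drugs (log2 change -3.37 ± 0.24, adjusted p = 6.3e-06). Kcnip1, a partner of voltage-gated potassium channels, fell from 57.1, 45.1 and 48.3 TPM to 5.52, 3.1 and 7.66 TPM (log2 change -3.05 ± 0.25, adjusted p = 9.8e-06). Dusp9, a phosphatase of ERK kinases, went from 47.1, 67 and 54 TPM to 8.49, 2.55 and 9.29 TPM (log2 change -3.01 ± 0.37, adjusted p = 7.1e-05). For these 3 genes combination replicate 2 was lowest. Lmo3, a LIM-domain protein known as a neuroblastoma oncogene, fell from 30.6, 30.3 and 37.9 TPM to 5.69, 2.98 and 4.38 TPM (log2 change -2.69 ± 0.25, adjusted p = 1.5e-05). Arhgap36, Stk26, Neurod6, Tdrd1 (not called without combination replicate 3, adjusted p = 0.052), Fut9 and Lin7a had falls between -2.84 for Arhgap36 and -2.61 for Lin7a.

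Death and stress genes split within their lists. Of p53 and its targets 21 of 36 rose and 6 fell (median 0.65). Pmaip1, the gene of the BH3 protein NOXA, went from 0.57, 0.49 and 0.54 TPM to 10.3, 12.6 and 10.4 TPM (log2 change 2.98 ± 0.28, adjusted p = 1.7e-05). Gdf15, a stress cytokine, went from 0.35, 1.1 and 0.73 TPM to 10.5, 16.5 and 16.3 TPM (log2 change 3.16 ± 0.30, adjusted p = 1.8e-05). Mdm2, the p53 ubiquitin ligase and a standard p53 target, stood at 51.7, 40.7 and 46.1 TPM in the vehicle group, compared with 57.4, 58.9 and 59.8 TPM in the combination group (log2 change 0.35 ± 0.12, adjusted p = 0.027), a call lost in 5 of the 6 analyses that left out 1 vehicle or combination library. Trp53 itself fell (log2 change -0.63 ± 0.12, adjusted p = 7.9e-04), as did Tigar, Aen, Ercc5, Ckap2 and Gtse1, and Bax and Bbc3 (PUMA) did not pass. In the BCL2 and caspase list 18 of 28 rose, such as Casp8, the initiator caspase of death receptors, from 3.87, 3.45 and 2.61 TPM to 84.2, 78.5 and 57.4 TPM (log2 change 4.10 ± 0.36, adjusted p = 1.3e-05). Bak1, a pore-forming killer protein, went from 5.45, 5.21 and 3.99 TPM to 47, 43.2 and 41.4 TPM (log2 change 2.94 ± 0.24, adjusted p = 1.0e-05), and among the 4 that fell were Bok, Hrk and Birc5. Immune cells express Casp8 and Bak1 too, and the summed macrophage markers moved with them, but their part was not tested.

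Immediate-early factors rose in 22 of 26 (median 1.79). Junb of the AP-1 family had 14.5, 11.2 and 12.4 TPM in vehicle tumours, then 65.1, 107 and 92.5 TPM in combination tumours (log2 change 2.68 ± 0.23, adjusted p = 1.2e-05). Atf3, a stress-induced repressor, went from 7.72, 6.12 and 5.91 TPM to 57.9, 56.9 and 75.7 TPM (log2 change 3.08 ± 0.31, adjusted p = 2.2e-05). Zfp36, which degrades cytokine mRNAs, went from 1.89, 2.39 and 1.2 TPM to 37.6, 33.7 and 35 TPM (log2 change 3.71 ± 0.31, adjusted p = 1.1e-05). Groups did not overlap for these 3 genes. Nr4a2 was the member that fell (log2 change -0.68 ± 0.19, adjusted p = 0.0098).

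Amino acid and unfolded protein stress genes rose in 16 of 31 and fell in 12. Cebpb, a factor of inflammation and stress, rose from 5.52, 3.87 and 3.16 TPM to 48.8, 63.7 and 53.2 TPM (log2 change 3.46 ± 0.24, adjusted p = 5.9e-06), while Asns and Psat1 of amino acid synthesis fell (log2 changes -1.37, adjusted p = 1.9e-05 and -1.71, adjusted p = 1.1e-05). Among heat shock chaperones 17 of 25 fell, including Hsp90aa1 from 1855, 1943 and 1822 TPM to 665, 594 and 813 TPM (log2 change -1.45 ± 0.14, adjusted p = 1.6e-05). The small heat shock protein Hspb1 rose from 9.06, 9.83 and 4.41 TPM to 130.0, 220.5 and 181 TPM (log2 change 4.38 ± 0.46, adjusted p = 3.0e-05), as did Hspa1a and Hspa1b, near-identical copies of the inducible HSP70.

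Glucocorticoid-responsive and metallothionein genes rose in 13 of 17, among them Lcn2 from 12.3, 1.47 and 1.14 TPM to 324, 203 and 176 TPM (log2 change 5.79 ± 0.65, adjusted p = 4.1e-05), but the classical glucocorticoid targets Fkbp5, Tsc22d3, Per1 and Zbtb16 did not pass. Angptl4, a lipase inhibitor, went from 16.2, 13.6 and 13.1 TPM to 115, 158 and 142 TPM (log2 change 3.18 ± 0.29, adjusted p = 1.6e-05). The core clock genes rose in 7 of 18 and fell in 4, shares of 38.9% and 22.2%, near the background of 35.9% and 30.1%. That split became 3 and 7 after quantile normalization. Hlf fell from 93.8, 67 and 73.5 TPM to 21.3, 6.59 and 22.3 TPM (log2 change -2.31 ± 0.37, adjusted p = 3.3e-04).

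Small RNA genes varied widely between libraries. Of 36 small nucleolar and Cajal body RNA genes tested, 4 rose and 6 fell. Leaving out 1 library gave between 1 and 3 rises and between 3 and 6 falls, with fewest rises without vehicle replicate 1 and fewest falls without vehicle replicate 2 or 3. Scarna8 was at 182, 110.4 and 177 TPM in vehicle and listed at 0 in all 3 combination libraries (adjusted p = 0.0061), and Snora75 was at 530.2, 64.5 and 206 TPM and listed at 0 likewise (adjusted p = 0.009). Nuclear oxidative phosphorylation genes rose in 12 and fell in 12 of 80, or 15% each way beside the background of 35.9% and 30.1%. Leaving out 1 library gave between 8 rises, without vehicle replicate 3 or combination replicate 2, and 18, without combination replicate 3. The falls numbered between 5, without vehicle replicate 2, and 11, without combination replicate 2. The split also moved with scaling, to 8 rises and 19 falls after rescaling without small RNA and histone genes and to 13 and 18 after quantile normalization.

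The combination was also set against each drug alone, where more genes differed from CBL0137 than from panobinostat, the group with 1 library fewer. Both comparisons use the same 3 combination libraries. Compared with CBL0137 tumours (n = 3), 5146 genes were higher (33.2%) and 3678 lower (23.7%). Compared with panobinostat tumours (n = 2), 967 were higher (6.24%) and 667 lower (4.3%). Without combination replicate 2, the library with adrenal cortex transcripts, the counts against panobinostat were 346 higher and 138 lower. Leaving out 1 library moved the higher count between 205, without panobinostat replicate 1, and 1695, without CBL0137 replicate 3. It moved the lower count between 119, without panobinostat replicate 3, and 1792, without combination replicate 3. All 49 interferon-stimulated effectors were higher than after CBL0137 (median 2.08) and 48 were higher than after panobinostat (median 3.96). Their summed level was 2169.5, 2405 and 6118 TPM in CBL0137 replicates 1 to 3, and 1158 and 1228 TPM in the panobinostat libraries. In combination replicates 1 to 3 it was 17741, 16859.5 and 8682 TPM, so replicate 3 of CBL0137 came nearest to replicate 3 of the combination. Ifit1 averaged 119 TPM after CBL0137 and 5.07 TPM after panobinostat, against 538 TPM after both (log2 differences 2.23, adjusted p = 0.0018 and 6.42, adjusted p = 1.8e-04). B2m averaged 814, 644 and 2678 TPM in that order (log2 differences 1.84, adjusted p = 0.002 and 2.01, adjusted p = 0.02). Ccl12 averaged 116, 62.4 and 981 TPM (log2 differences 3.28, adjusted p = 6.1e-04 and 4.0, adjusted p = 0.0043). B2m was highest after both drugs. Ifit1 and Ccl12, and the falls Ppp1r17 and Kcnip1, were among genes picked for a call in the same direction against all 3 groups. Their order was therefore fixed by that choice and adds no support. Among the largest falls, Ppp1r17 averaged 43, 22.5 and 6.68 TPM (log2 differences -2.52, adjusted p = 2.6e-04 and -1.65, adjusted p = 0.0083), and Kcnip1 averaged 31.1, 17.3 and 5.43 TPM (log2 differences -2.37, adjusted p = 2.6e-04 and -1.58, adjusted p = 0.012).

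For stromal, division and neuronal genes the values against both single drugs stand side by side. Of the fibroblast and pericyte markers 21 of 23 were higher than after CBL0137 (median 2.29). Against panobinostat the median was 0.72 and limma called 0 of them higher, with 8 at an unadjusted p under 0.05. Sparc averaged 219.8 TPM after CBL0137, 565 TPM after panobinostat and 1034 TPM after both (log2 differences 2.34, adjusted p = 3.2e-04 and 0.86, adjusted p = 0.10). Of the spindle genes 44 of 45 were lower than after CBL0137 and 17 lower than after panobinostat (medians -1.52 and -1.13). Against panobinostat 44 of the 45 had an unadjusted limma p under 0.05. Mki67 averaged 220.2, 213 and 85.6 TPM in the same order (log2 differences -1.47, adjusted p = 0.006 and -1.44, adjusted p = 0.04956). Neuronal cytoskeleton and synapse genes were lower than after CBL0137 in 25 of 33 and lower than after panobinostat in 13. Against panobinostat 24 of the 33 had an unadjusted limma p under 0.05, in either direction. Stmn4 averaged 146, 66.5 and 26.9 TPM in the order given (log2 differences -2.46, adjusted p = 2.6e-04 and -1.33, adjusted p = 0.022). Hspb1 averaged 189 TPM after panobinostat and 177 TPM after both (log2 difference 0.14, adjusted p = 0.88), against 24 TPM after CBL0137 (2.88, adjusted p = 7.4e-04). The panobinostat mean rests on 2 libraries, replicate 1 at 84.15 TPM and replicate 3 at 294.7 TPM. These lie on either side of the combination libraries at 130, 220.5 and 181 TPM. Panobinostat replicate 3 also held transcripts of other tissues. Its muscle markers summed to 13087 TPM and its liver markers to 1708 TPM, against 17 and 36.4 TPM in replicate 1. Their part in the panobinostat means was not tested.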

How the data were processed

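Total RNA from Th-MYCN tumours was sequenced in 11 libraries, of which the 6 from vehicle and combination mice are the members. The authors deposited TPM for 24411 genes, and the submitters' processing notes name STAR, SAMtools, RSEM and mm10, with versions, settings and annotation release not given in the sources used here. The TPM sum to 1000000 per library, so a class of RNA that shrinks raises all others, and read depth, with the precision it gives, cannot be known from them. In 27 rows the symbol had become a date, and the transcript identifier was used.

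Genes had to reach 1 TPM in 2 or more libraries (15497 kept, 8914 left out). limma 3.58.1 in R 4.3.3 fitted 4 group means over 11 libraries to log2(TPM + 1), with a trend and 7 residual degrees of freedom, so adjusted p-values for 3 against 3 mice pool the spread of all groups. Tests were 2-sided, with Benjamini-Hochberg adjustment over all tested genes and a threshold of 0.05. A log2 change is given ± its standard error. An exact permutation test of 3 against 3 could not go below 0.1. Replicates are separate mice. The model was tested on simulated data. Alternatives were another pseudocount, another filter, scaling by trimmed means of M-values (TMM), quantile normalization, rescaling without small RNA and histone genes, a replicate block, no trend, array weights, the 2 groups alone, and leaving out each library.

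Members, lists and tests were chosen with earlier results of these data known. Named genes were the 12 largest rises and falls whose groups did not overlap with a mean of at least 5 TPM (unnamed models, histone, small RNA, antigen receptor and other-tissue genes left out), up to 4 members per list with the lowest adjusted p, the 5 largest changes each way shared by all 3 comparisons, and a panel. Other genes were named after their values were seen, as members that went against their list, did not pass or complete a count. Promoter windows are from RefSeq (GRCm38.p6), with 12121 of 15497 genes matched by symbol.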

Additional observations from a re-analysis of the deposited data

How the results depend on the processing

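Combination against vehicle gave 5020 to 5587 rises and 4112 to 4709 falls when any 1 of the 11 libraries was left out, and 4162 to 6345 rises and 4402 to 6678 falls under the other 11 alternatives. Of the 236 named genes 215 were called, 203 of them in all 11 analyses without a library and 201 in these and under the other 11 alternatives together. Against panobinostat the counts were less stable. Rises numbered 1502 after quantile normalization, 456 with only the 2 groups and 205 to 1695 without 1 library. Falls numbered 430 with no filter, 1825 after quantile normalization, 1305 after rescaling without small RNA and histone genes, 21 with only the 2 groups and 119 to 1792 without 1 library; the cause was not tested. List medians changed sign for CDK inhibitors (-0.2076 after quantile normalization, -0.0603 with array weights, and -0.04072 to 0.4744 without 1 library), unfolded protein stress (-0.001393), clock genes (-0.2314) and neurotrophin receptors (-0.005218, each after quantile normalization), kidney markers (3.12 with a filter of 5 TPM and -2.014 to 0.7146 without 1 library) and muscle markers (-0.4436 to 1.711 without 1 library). The 5 lists whose medians lay within 0.1 of 0, namely the MYC network, oxidative phosphorylation, small nucleolar RNA, microRNA and liver genes, also changed sign under at least 1 alternative. Rescaling removes the clustered histone genes and so gives no value for them. Where 1 panobinostat library was left, that library was assumed to vary like the other groups.

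With the replicate number as a block, combination against vehicle gave 5377 rises and 4476 falls, against CBL0137 4846 and 3472, and against panobinostat 297 and 48. The labels share numbers but no pairing: same-numbered vehicle and combination libraries correlated at -0.064, 0.104 and 0.054 in their deviations from group means, and vehicle replicate 1 correlated best with combination replicate 3. Without counts, what depth limits cannot be given.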
